A study of Mus musculus with 4 samples.

Results

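The Reelin pathway was followed in fetal mouse brain through 6 genes, taken by symbol: the ligand gene Reln, the receptor genes Vldlr and Lrp8, the intracellular adaptor gene Dab1, and the protease genes Adamts3 and Adamts2. Every probe set that the platform annotation assigns to one of these symbols alone was used. This gave 20 probe sets of 35557 on the array: 16 for Adamts3 and 1 each for Reln, Vldlr, Lrp8 and Dab1. No probe set was assigned to Adamts2, which was therefore not analysed here. The 5 measured genes stand among 19938 genes with a probe set of their own and among 11013 genes whose mean signal reached the median of all probe sets, a log2 value of 7.11. All 5 passed this filter, as did all 20 probe sets. Adamts3 entered the group because of its low reading in the hippocampus ethanol array, so its values in that comparison are a description and support nothing.

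The 4 arrays were of C57BL/6J mice, 1 array for each group: hippocampus after maternal ethanol (EtOH), hippocampus after maternal phosphate-buffered saline (PBS), forebrain after EtOH and forebrain after PBS. Dams were gavaged with PBS or with 15% ethanol, 2.9 g/kg daily, over 5 days of gestation (embryonic days 8 to 12), and fetal tissue was taken on embryonic day 18. The labels give no litter, sex or pooling of embryos, so a difference between litters or processing runs cannot be told apart from ethanol, and with 1 array per group the differences within a tissue lack any check by replicates. Values are log2 signals, so a difference of 1 is 2-fold.

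Array medians over all probe sets lay between 7.11 and 7.13, but the 11013 kept genes centred on 8.57 in the hippocampus EtOH array and on 8.66 to 8.68 in the remaining arrays. The median EtOH minus PBS difference over kept genes was therefore -0.08 in hippocampus and -0.01 in forebrain, and values below are also given relative to it. Differences were more widely spread in hippocampus, with a standard deviation (SD) over kept genes of 0.187, than in forebrain, with 0.0941. By mean level, hippocampal field markers as a list did not set the tissue labelled hippocampus apart. Their mean was 8.82 after EtOH and 8.94 after PBS in hippocampus, and 8.89 after EtOH and 8.87 after PBS in forebrain. Limma called 0 of 11 kept markers between the tissues, beside 1.02% of kept genes lower and 0.109% higher in hippocampus. At such shares a list of 11 would seldom hold a call, so nothing is read from this count. Single markers went both ways. Hippocampus minus forebrain was 0.23 after EtOH and 0.35 after PBS for Zbtb20, and -0.33 and -0.16 for Prox1. Of these 11 markers 2, Lhx2 (-0.67) and Mef2c (-0.64), were at least 1.5-fold lower in the hippocampus EtOH than PBS array, before any centring. Their part in the values below was not tested.

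Reelin is a large secreted glycoprotein. In the fetal cortex and hippocampus it comes mainly from Cajal-Retzius cells of the marginal zone, and later also from interneurons. It binds the lipoprotein receptors VLDLR and ApoER2, the product of Lrp8, on migrating neurons, and Src-family kinases then phosphorylate the adaptor Dab1, which passes the signal to cytoskeletal and adhesion proteins that place neurons in layers. ADAMTS3 and ADAMTS2 are secreted metalloproteases, first known as procollagen N-proteinases, that cut reelin near its amino-terminal end and so limit its activity. ADAMTS3 also takes part in activating the lymphatic growth factor VEGF-C.

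Adamts3 and Reln had the lowest and the highest hippocampus difference of the group after EtOH, and the RefSeq promoter windows of both (GRCm38.p6, minus strand, 250 bases before to 50 after the annotated start) are shown for that reason. The Adamts3 window lies at chr5:89883285-89883584 and the Reln window at chr5:22344656-22344955. Capitals mark the GC box GGGCGG, or CCGCCC on the other strand, and overlapping copies would run together.
Adamts3: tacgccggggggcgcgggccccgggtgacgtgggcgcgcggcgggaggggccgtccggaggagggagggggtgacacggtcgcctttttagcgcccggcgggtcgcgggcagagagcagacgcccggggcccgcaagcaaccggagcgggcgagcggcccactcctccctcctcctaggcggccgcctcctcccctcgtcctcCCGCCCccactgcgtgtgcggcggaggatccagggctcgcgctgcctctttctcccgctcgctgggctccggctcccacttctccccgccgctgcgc
Reln: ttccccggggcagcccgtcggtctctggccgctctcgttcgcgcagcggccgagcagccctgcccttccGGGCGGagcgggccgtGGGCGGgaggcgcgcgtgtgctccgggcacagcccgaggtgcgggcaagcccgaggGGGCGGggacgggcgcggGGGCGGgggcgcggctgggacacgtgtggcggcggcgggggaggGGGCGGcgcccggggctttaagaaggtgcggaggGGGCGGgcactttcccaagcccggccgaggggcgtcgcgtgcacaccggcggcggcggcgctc
Both windows were rich in G and C. GC content was 77.3% in the Adamts3 window and 80.7% in the Reln window, against a median of 52.7% over 32851 promoter windows. The Adamts3 window held 41 CpG dinucleotides and the Reln window 47, where the median window held 7. A GC box was found 1 time in the Adamts3 window and 6 times in the Reln window, and 35.7% of all windows held at least 1. An E-box (CANNTG, the same on both strands, which can overlap the other motifs) was absent from the Adamts3 window and found 1 time in the Reln window, against 72.3% of all windows with at least 1. The T-box core TCACAC, or its reverse complement,  was found in neither window and in 14.5% of all windows. These letter matches say nothing of whether a factor binds there, and the windows were not assayed in these samples.

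The first comparison asked how the genes differ after maternal ethanol in the tissue labelled hippocampus, and Adamts3, which encodes the reelin-cleaving protease, read lower. Its brightest probe set, 10531193, stands for the gene and read 9.45 in the hippocampus EtOH array, against 10.28 in the hippocampus PBS array. In forebrain the same probe set read 9.94 after EtOH and 9.90 after PBS. The hippocampus difference was -0.84, which is 1.79-fold lower after EtOH, or -0.76 relative to the median of kept genes. It was the 8th lowest of 11013 differences. Both forebrain arrays lay between the hippocampus arrays, so the hippocampus PBS array was the highest and the hippocampus EtOH array the lowest of the 4.

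All 16 Adamts3 probe sets repeated this order, with the hippocampus PBS array highest, the hippocampus EtOH array lowest and both forebrain arrays between them, an order seen in 22.3% of kept genes. They read 7.46 to 9.45 (median 8.58) in the hippocampus EtOH array, against 8.08 to 10.28 (median 9.16) in the hippocampus PBS array. In forebrain they read 7.77 to 9.94 (median 8.80) after EtOH and 7.80 to 9.90 (median 8.84) after PBS. The probe sets share the same 4 RNA samples and one transcript, so they repeat the reading of the gene and not the treatment.

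Across these 16 probe sets the hippocampus difference ranged from -0.98 to -0.38, with a median of -0.61 and a mean of -0.62 ± 0.153 (SD over probe sets). All 16 were lower after EtOH, and 9 of the 16 were at least 1.5-fold lower. As 1 gene they count once beside the 69.3% of kept genes that were lower by any amount (30.7% were higher). The largest difference belonged to probe set 10531201, which read 7.74 in the hippocampus EtOH array and 8.73 in the hippocampus PBS array. The smallest belonged to probe set 10531195, at 7.80 after EtOH and 8.18 after PBS. The second brightest, 10531177, read 9.29 after EtOH and 10.03 after PBS, a difference of -0.74. The brightest probe set thus gave a larger difference than the typical one.

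Brightness and size of the difference were only loosely related over the probe sets. The 8 brighter ones had a median difference of -0.65 and the 8 dimmer ones of -0.57, and the correlation of level with difference was -0.268 (Pearson r, n = 16 probe sets on shared arrays) and -0.385 (Spearman's rho). Of the 19 kept genes with 10 or more probe sets, 2 had every probe set lower in the hippocampus EtOH array, which is 10.5% of them, and Adamts3 had the lowest median. Probe set 10531175, which the annotation links to 1 of the 2 RefSeq messenger RNAs named for the other probe sets, read 7.60 after EtOH and 8.11 after PBS in hippocampus, close to the rest.

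**Figure D1:**
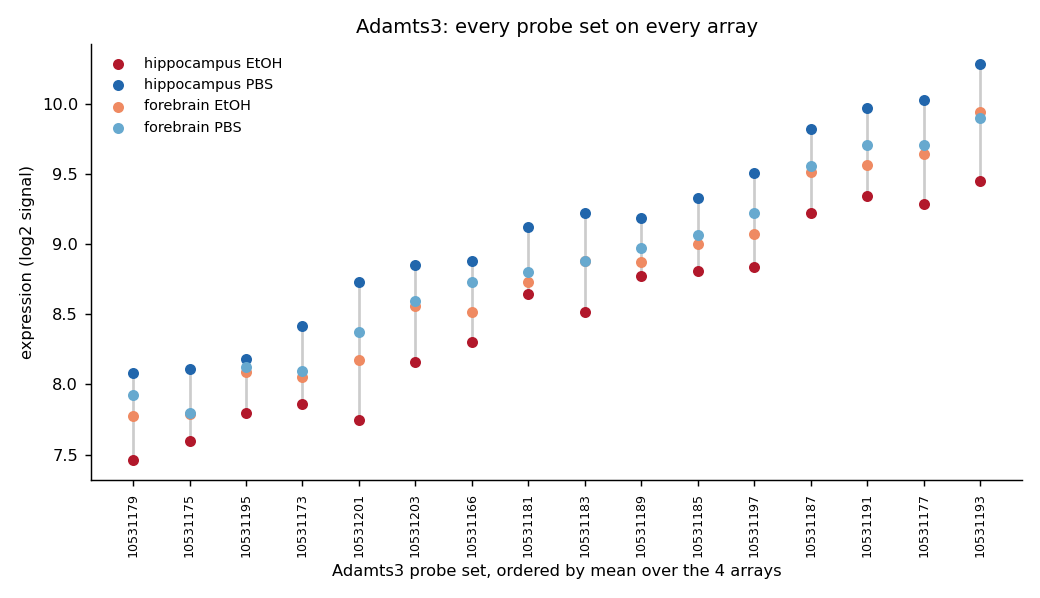
Each column is 1 of the 16 Adamts3 probe sets, ordered by mean, and each point is its log2 signal on 1 array: hippocampus EtOH (dark red), hippocampus PBS (dark blue), forebrain EtOH (orange) and forebrain PBS (light blue). In every column the hippocampus EtOH point is the lowest and the hippocampus PBS point the highest.

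Dab1, the adaptor that is phosphorylated when reelin binds its receptors, was the only other member with a difference near that of Adamts3. It read 10.11 in the hippocampus EtOH array, against 10.66 in the hippocampus PBS array. The forebrain arrays read 10.44 after EtOH and 10.53 after PBS. As for Adamts3, both forebrain arrays lay between the hippocampus arrays, with a smaller range. The hippocampus difference of -0.55, or -0.47 relative to the median of kept genes, was the 70th lowest of 11013, just short of 1.5-fold (0.58 on the log2 scale).

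The receptor genes differed less. Lrp8, which encodes ApoER2, read 10.40 in the hippocampus EtOH array and 10.60 in the hippocampus PBS array, and 10.47 after EtOH and 10.54 after PBS in forebrain. Its hippocampus difference of -0.21 was -0.13 relative to the median, and 18.9% of kept genes had a lower one. Lrp8 also had both forebrain arrays between the hippocampus arrays, in the same order as Dab1. Vldlr, the other reelin receptor gene, read 10.11 in the hippocampus EtOH array and 10.23 in the hippocampus PBS array, and 10.11 after EtOH and 10.13 after PBS in forebrain. The Vldlr difference was -0.12, or -0.04 relative to the median of kept genes.

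Reln itself was level between the hippocampus arrays. It read 10.80 in the hippocampus EtOH array and 10.79 in the hippocampus PBS array, a difference of 0.00, or 0.08 relative to the median of kept genes. The forebrain arrays read 10.82 after EtOH and 10.95 after PBS. The ligand gene and the protease gene were thus at the ends of the range of hippocampus differences in the group. By the threshold of 1.5-fold, 1 of the 5 measured members, Adamts3, was lower after EtOH in hippocampus and 0 were higher, beside 0.427% of kept genes lower and 0.49% higher. At 2-fold 0 members were lower and 0 higher, beside 0.00908% and 0.0545% of kept genes. From the share of members nothing is read, because this comparison was used in choosing Adamts3.

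**Figure D2:**
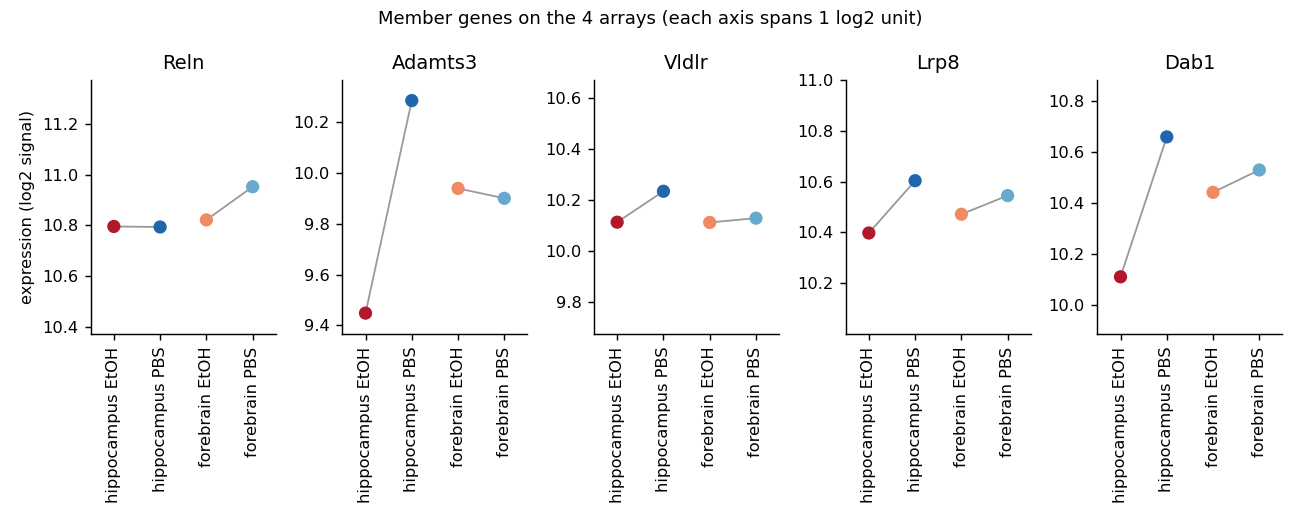
Log2 signal of each member gene (its brightest probe set) on the 4 arrays, EtOH left of PBS within each tissue and joined by a line, with every vertical axis spanning 1 log2 unit. Adamts3 and Dab1 have the steep hippocampus lines, with differences of -0.84 and -0.55, while the Reln hippocampus line is flat.

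In forebrain the group differed little after EtOH, and this comparison shares no array with the one Adamts3 was chosen on. Reln had the largest forebrain difference of the group at -0.13 (-0.12 relative to the median), and 7.95% of kept genes had a lower one. Dab1 differed by -0.09, Lrp8 by -0.07 and Vldlr by -0.02. Adamts3 differed by 0.04 at its brightest probe set. The other probe sets of Adamts3 ran the other way: 15 of 16 were lower in the forebrain EtOH array, from -0.21 to 0.04 with a median of -0.06. The 16 are readings of 1 gene on the same arrays. Their count is thus no excess over the 53.8% of kept genes lower and 46.1% higher by any amount. None of the 5 members reached 1.5-fold in either direction, beside 0.0272% of kept genes lower and 0.0454% higher.

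The EtOH minus PBS difference of Adamts3 was thus lower in hippocampus than in forebrain by 0.87 at its brightest probe set (-0.87, the 5th lowest of 11013 such contrasts between tissues). Over all 16 probe sets this contrast ranged from -0.87 to -0.31. For Dab1 it was -0.46, for Lrp8 -0.13, for Vldlr -0.10 and for Reln 0.13. It rests on the same hippocampus arrays and has no test, since each group is 1 array.

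**Figure D3:**
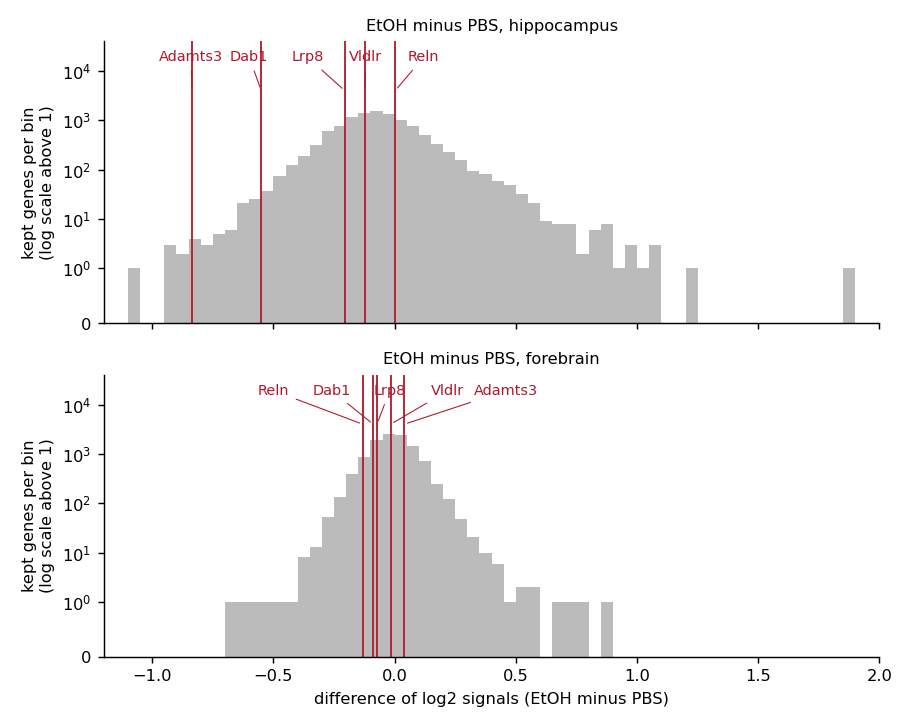
Numbers of kept genes (grey, vertical axis logarithmic above 1) by EtOH minus PBS difference of log2 signals, for hippocampus above and forebrain below, with the 5 member genes as red lines. In hippocampus Adamts3 and Dab1 lie in the lower tail and Lrp8, Vldlr and Reln in the bulk, and in forebrain all 5 lie between -0.13 and 0.04.

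When the tissues were combined, no member passed the test for ethanol. The model was fitted by limma over all 11013 genes with treatment and tissue as terms, and Benjamini-Hochberg adjustment ran over all of them. It has 1 residual degree of freedom and takes the difference in response between tissues as its error, and it contains the hippocampus arrays that Adamts3 was chosen on. Adamts3 differed by -0.40 (SE 0.171, limma adjusted p = 0.513), Dab1 by -0.32 (SE 0.101, adjusted p = 0.510) and Lrp8 by -0.14 (SE 0.0603, adjusted p = 0.516). Vldlr differed by -0.07 and Reln by -0.06, with adjusted p of 0.685 and 0.673. Limma called 0 genes of the whole table in either direction (0%), while an unadjusted p of 0.05 was passed by 6.36% of genes on the lower side, Dab1 among them, and by 3.41% on the higher side.

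The tissues were then compared with each other. In limma's tissue term no member passed, beside 1.02% of kept genes lower and 0.109% higher in hippocampus. Hippocampus minus forebrain was -0.09 for Reln (SE 0.0565, adjusted p = 0.515) and -0.10 for Dab1 (adjusted p = 0.725). It was -0.05 for Adamts3 (adjusted p = 0.930), -0.01 for Lrp8 (adjusted p = 0.973) and 0.05 for Vldlr (adjusted p = 0.770). For Adamts3 this average hides opposite values. After EtOH the hippocampus array read lower than the forebrain array for 16 of 16 probe sets (-0.49 at the brightest, median -0.26). Over kept genes 69.6% read lower and 30.4% higher. After PBS the hippocampus array read higher for 16 of 16 (0.38 at the brightest, median 0.28). Over kept genes 52.4% read higher and 47.5% lower. The probe sets read 1 gene, chosen on these hippocampus arrays, so nothing is read from their counts beside these shares.

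Dab1 had the same change of sign, at -0.33 after EtOH and 0.13 after PBS. Lrp8 was at -0.07 after EtOH and 0.06 after PBS. Reln stood below forebrain under both treatments, at -0.03 after EtOH and -0.16 after PBS, and Vldlr stood at 0.00 after EtOH and 0.11 after PBS. No member was 1.5-fold apart between tissues after either treatment, beside 0.536% of kept genes lower and 0.154% higher in hippocampus after EtOH, and 1.19% lower and 0.0908% higher after PBS. The Adamts3 difference in hippocampus is thus made up of a higher PBS array and a lower EtOH array, each set against forebrain.

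Profiles like those of Adamts3 and Reln were sought among the kept genes, by Euclidean distance of log2 values centred per gene over the 4 arrays. The genes nearest to Adamts3 were Gpc4, a glypican gene (distance 0.0881), Lmo7, a LIM-domain protein gene (0.0948), Tgfbr1, a receptor of transforming growth factor beta (0.0971), Sox5, a regulator of subplate and corticofugal neurons (0.107), and Mpped1, a metallophosphoesterase-domain protein gene (0.122). Gpc4 read 7.99 in the hippocampus EtOH array and 8.90 in the hippocampus PBS array, and Sox5 read 9.19 in the hippocampus EtOH array and 10.04 in the hippocampus PBS array. Among 11012 genes Dab1 was the 39th nearest to Adamts3 (0.226), Lrp8 the 1794th, Vldlr the 3953rd and Reln the 7594th. Nearest to Reln were Slc9a5, a sodium-hydrogen exchanger gene (0.008), Tmem204, Rbck1, Creld2 and Pitpnm2, all within 0.0264, and a small distance is common among genes with a small range. With 4 arrays such likeness is a description of these arrays.

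**Figure D4:**
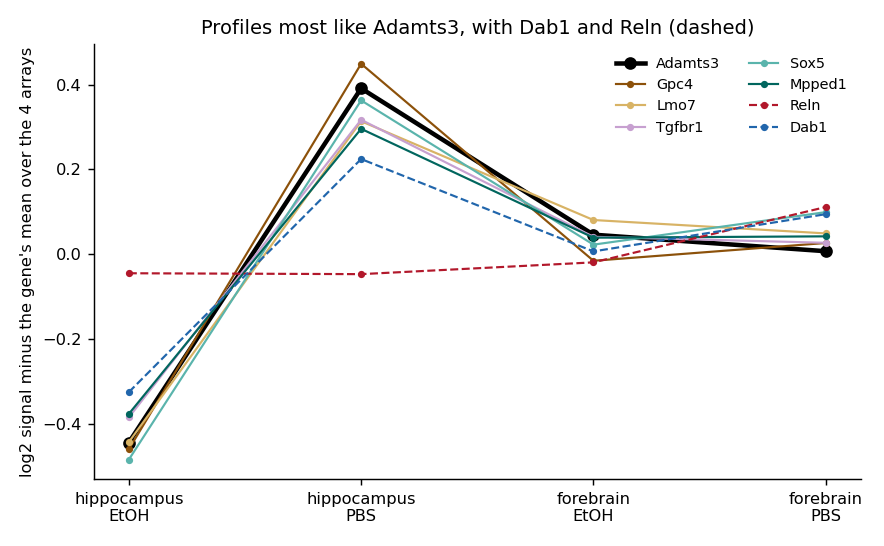
Log2 signal minus each gene's mean over the 4 arrays, for Adamts3 (black), the 5 nearest genes (solid) and Dab1 and Reln (dashed). The 5 genes, like Adamts3, are highest in the hippocampus PBS array and lowest in the hippocampus EtOH array, Dab1 has a shallower line of the same shape, and Reln is nearly flat in hippocampus.

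Signalling genes around the group showed no differences of 1.5-fold. Of 17 measured kinases and adaptors downstream of Dab1, 13 were lower and 4 higher in the hippocampus EtOH array. Over all kept genes 69.3% were lower and 30.7% higher. The median of the 17 was -0.10 beside -0.08 over all kept genes, and centring on the kept genes turns this -0.10 to 0.00. The adaptor gene Nck2 stood lowest at -0.24, followed by Limk1, a kinase acting on cofilin, at -0.22, and Pik3cb, a phosphoinositide 3-kinase subunit gene, at -0.19. Cfl1, the cofilin gene, stood highest at 0.17. The Src-family kinase genes Fyn and Src, which phosphorylate Dab1, were at -0.07 and -0.10, and the adaptor genes Crk and Crkl at -0.14 and -0.17. The forebrain median of these 17 was -0.03, with 13 lower, beside 53.8% of all kept genes.

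Genes that remove activated Dab1 were mixed. Rnf7, the RING partner of the cullin Cul5 in this ubiquitin ligase, read 8.51 in the hippocampus EtOH array and 8.97 in the hippocampus PBS array, a difference of -0.46, and its substrate-receptor gene Socs7 differed by -0.31. Cul5 itself differed by 0.13 and Socs2 by 0.19, and the median of the 5 genes was 0.05. Among 10 cytoskeletal partners of migration the differences stayed between -0.19 and 0.08 in hippocampus, with a median of -0.05 that turns to 0.05 when arrays are centred on the kept genes. These included Dcx, the doublecortin gene, at -0.10, and Pafah1b1, the Lis1 gene, at 0.01.

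Of 11 co-receptor and adhesion genes linked to reelin, 8 were lower and 3 higher in the hippocampus EtOH array, near the 69.3% of kept genes that were lower. Their median of -0.13 became -0.03 after centring on the kept genes. Cntn2, a contactin of axons, had the largest difference, at 10.34 after EtOH against 10.91 after PBS. The ephrin gene Efnb1 differed by -0.35, Notch1 by -0.30 and the nectin gene Nectin3 by -0.23. Efnb3 passed limma's tissue test at an adjusted p of 0.0423, with -0.43 after EtOH and -0.55 after PBS for hippocampus minus forebrain. It was the only gene of the signalling lists, outside the procollagens, that passed either test.

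Lipoprotein ligands and receptor regulators differed in both directions. Apoe, another ligand of the reelin receptors, read 10.55 in the hippocampus EtOH array and 9.997 in the hippocampus PBS array, and 10.43 after EtOH and 10.31 after PBS in forebrain. For Apoe the hippocampus PBS array was the lowest of the 4. Spon1, the F-spondin gene, differed by 0.36 in hippocampus, and Thbs1, the thrombospondin-1 gene, by -0.46. Mylip, whose product marks the receptors for degradation, differed by 0.17, and Snx17, a sorting nexin of their recycling, by -0.17. Of 9 kept members of the wider LDL receptor family 8 were lower in the hippocampus EtOH array, beside 69.3% of all kept genes. The median of the 9 was -0.10, which all but vanished after centring on the kept genes. Sorl1 stood lowest at -0.35, followed by Lrp5 at -0.31 and Lrp6 at -0.26.

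Other proteases did not share the size of the Adamts3 difference. Adamts4, which also cleaves reelin, read 7.22 in the hippocampus EtOH array and 7.50 in the hippocampus PBS array, and Plat, the tissue plasminogen activator gene, read 7.99 in the hippocampus EtOH array and 7.91 in the hippocampus PBS array. Adamts14, the remaining procollagen N-proteinase gene, and Adamts5, Mep1a and Mep1b fell below the expression filter. Of 9 kept genes among the other Adamts family members, 5 were lower and 4 higher, beside 69.3% and 30.7% of all kept genes. The median of these 9 was -0.23, and it was -0.13 after centring on the kept genes and 0.02 over all measured genes of the list without the filter. Adamts20 was at -0.43, Adamts18 at -0.39, Adamts12 at 0.27 and Adamts17 at 0.34, and none reached 1.5-fold.

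Genes of the other known substrates of ADAMTS3 were read as well. Ccbe1, whose product helps ADAMTS3 to activate VEGF-C, read 7.95 in the hippocampus EtOH array and 8.35 in the hippocampus PBS array, and 8.06 after EtOH and 8.14 after PBS in forebrain. Vegfc itself differed by -0.19 in hippocampus and by 0.01 in forebrain, and Flt4, its receptor gene, was below the filter. All 7 fibrillar procollagen genes were higher in the hippocampus EtOH array (median 0.12) and lower in the forebrain EtOH array (median -0.11). Over all kept genes 30.7% were higher after EtOH in hippocampus and 53.8% lower after EtOH in forebrain. Meningeal fibroblast markers lay on the same sides, with 6 of 10 higher in hippocampus (median 0.19) and 8 of 10 lower in forebrain (median -0.12), and limma called 7 of the 10 lower in hippocampus than in forebrain. Their part in the procollagen values was not tested. Col3a1 led them, at 8.60 in the hippocampus EtOH array and 8.10 in the hippocampus PBS array, and 8.86 after EtOH and 9.10 after PBS in forebrain. Col1a1 and Col1a2 passed limma's tissue test as lower in hippocampus, with adjusted p of 0.0209 and 0.0175.

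**Figure D5:**
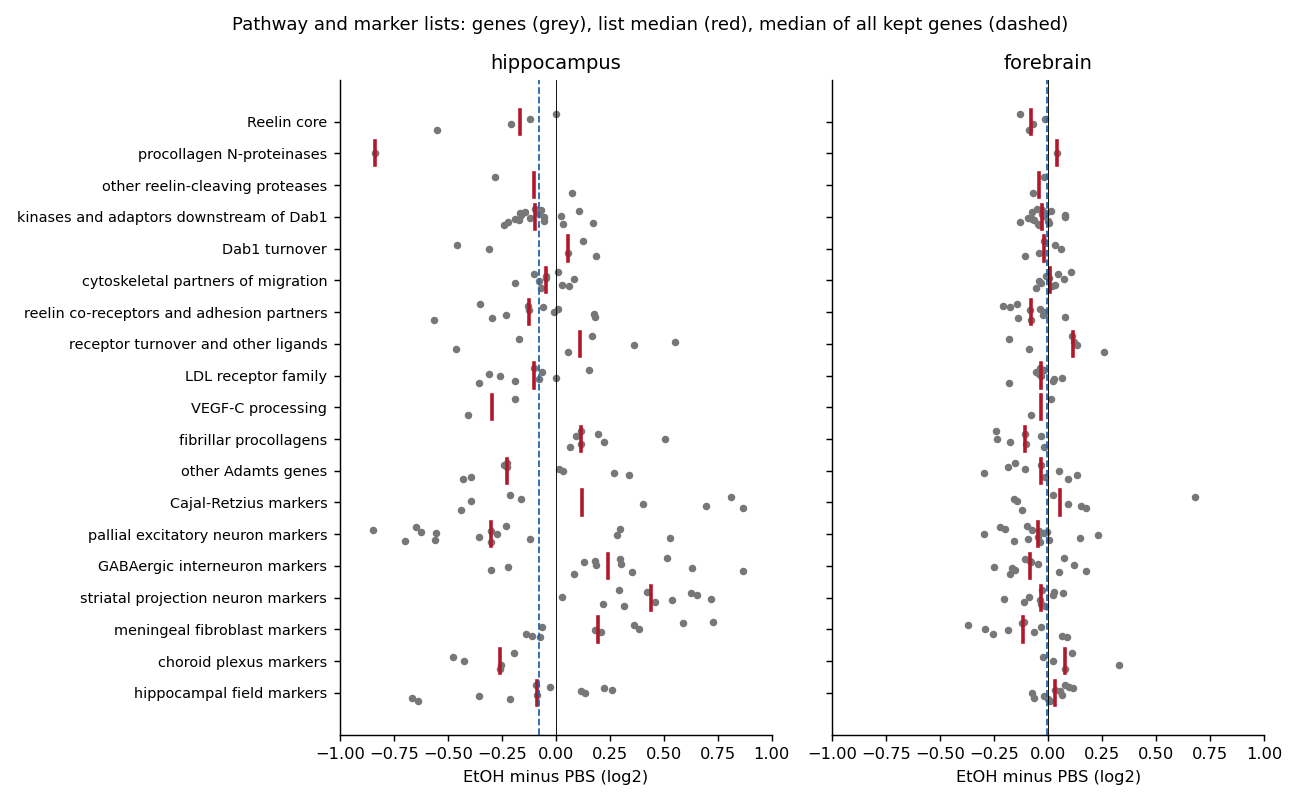
EtOH minus PBS difference of log2 signals for the kept genes of each pathway and marker list (grey points), in hippocampus at left and forebrain at right, with list medians as red bars and the median of all kept genes as a dashed line. In hippocampus the striatal and pallial marker lists lie on opposite sides, at medians of 0.44 and -0.30, while the lists downstream of Dab1 lie near the dashed line.

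Markers of cell types that could carry these transcripts differed between the hippocampus arrays at the same time, and in such bulk tissue fewer cells of a type and less RNA per cell cannot be told apart. Pallial excitatory neuron markers were lower for 12 of 15 kept genes in the hippocampus EtOH array, beside 69.3% of all kept genes, with a median of -0.30 that was -0.20 after centring on the kept genes. The other 3 were higher: Foxp2 at 0.53, Bcl11b at 0.30 and Slc17a6 at 0.28. At least 1.5-fold lower were 4 of the 15, beside 0.427% of all kept genes: Sox5 at -0.85, Nfia at -0.70, Fezf2 at -0.65 and Neurod2 at -0.62. These 4 were counted before that centring, which left 19 of 47 kept genes at least 1.5-fold lower. The mean level of the 15 was 9.51 after EtOH and 9.80 after PBS in hippocampus, and 9.63 after EtOH and 9.69 after PBS in forebrain. These means too had both forebrain arrays between the hippocampus arrays, as had Adamts3, Dab1 and Lrp8. Limma called 2 of the 15, Slc17a6 and Slc17a7, lower in hippocampus than in forebrain, beside 1.02% of kept genes. Striatal projection neuron markers were higher for 10 of 10 kept genes (median 0.44), beside 30.7% of all kept genes. At least 1.5-fold higher were 3 of them, beside 0.49%. Their mean level was 9.53 after EtOH and 9.11 after PBS in hippocampus, and 8.90 after EtOH and 8.94 after PBS in forebrain. Limma called 2 of the 10, Ebf1 and Foxp1, higher in hippocampus than in forebrain, beside 0.109% of kept genes. The part of these markers in the Adamts3 and Dab1 values was not tested.

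Markers of the cells that make reelin went both ways while Reln stayed level. Of 8 kept Cajal-Retzius markers 4 were lower and 4 higher in the hippocampus EtOH array (median 0.12, or 0.22 after centring on the kept genes and 0.31 without the filter). Calb2 at 0.87, Ebf3 at 0.81 and Car10 at 0.70 stood on the higher side, beside 0.49% of kept genes 1.5-fold higher, and the chemokine receptor gene Cxcr4 at -0.44 on the lower. Ebf3 was also 0.68 higher in the forebrain EtOH array. Trp73, the p73 gene of Cajal-Retzius cells, read 7.18 after EtOH and 7.40 after PBS in hippocampus, and Lhx1, Lhx5 and Ebf2 were below the filter. GABAergic interneuron markers were higher for 10 of 12 (median 0.24), beside 30.7% of kept genes, with Calb2, Sst at 0.63 and Gad1 at 0.51 in front. The other 2, Npy at -0.30 and Lhx6 at -0.22, were lower. The mean level of the 12 was 9.50 after EtOH and 9.24 after PBS in hippocampus. Choroid plexus markers were lower for 5 of 5 (median -0.26, or -0.16 with that centring), beside 69.3% of kept genes. Their part in the Reln reading was not tested either.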

How the data were processed

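Expression values are the authors' deposited log2 signals, 1 column per array. No label names the scale. The range of 1.58 to 13.96 fits log2: taken as natural logs, the top value would be a signal of 1.16e+06, past the 65535 of a 16-bit scanner. MAS5 was used, per the submitters' processing notes, and the labels' protocols give Trizol RNA and biotinylated cRNA from 6 ug. Other steps of the upstream processing are not stated there.

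Probe sets were named from the platform annotation where it gives 1 symbol (21789 of 35557; 1621 have several and 12147 none), and 0 symbols changed against RefSeq GRCm38.p6. The probe set with the highest mean stood for a gene, and genes at or above 7.11 were kept. The authors' scaling was kept. Ethanol and PBS were compared within a tissue as a difference of 2 arrays, without a test, and over both tissues by limma 3.58.1 (R 4.3.3, eBayes with a trend, Benjamini-Hochberg at 0.05). In a simulation of that comparison on 11013 genes, the share recovered was 100% at 2-fold and 100% at 1.5-fold, with 12 false calls. That simulation gave every gene the same noise and made each change equal in both tissues. Over kept genes the real response differed between tissues with an SD of 0.18. The shares thus do not show how many real changes the fit missed. Tables and plots used pandas 2.3.3, numpy 2.4.6 and matplotlib 3.10.9 under Python 3.11.15.

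The members, lists and tests were chosen with earlier results of these data known. Genes were eligible to be named as members, as up to 4 per list with the largest hippocampus difference, as list genes past 1.5-fold in either tissue or called by limma, and as the 5 profiles nearest to Adamts3 and to Reln; the text names all members and nearest profiles and, of the lists, only some eligible genes. Fyn, Src, Crk, Crkl, Pafah1b1, Mylip, Flt4, Trp73 and the family members below the filter are named for their role, outside that rule, after their values were seen. Zbtb20 and Prox1 are likewise outside it, named for their tissue differences. Among the cell type markers, Npy, Lhx6, Foxp2 and Bcl11b are outside it too, named for going against most of their list. With 1 array per group the number of arrays limits the precision.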

Additional observations from a re-analysis of the deposited data

Results flagged for a closer look

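With 1 array per group, 2 members had EtOH minus PBS differences of opposite sign in the tissues, and neither contrast was tested. The hippocampus difference minus the forebrain difference was -0.87 for Adamts3, whose forebrain difference of 0.04 lies within the SD of 0.0941 over kept genes, and whose other 15 probe sets were lower in both tissues. It was 0.13 for Reln, whose hippocampus difference of 0.00 has no clear sign. Opposite signs that exceed that forebrain SD in both tissues were seen for 7 genes of the pathway lists, again untested. Their contrasts were 0.74 for Col3a1, 0.57 for Adamts12, 0.40 for Col5a1, 0.36 for Col1a1, 0.30 for Col1a2, 0.30 for Socs2 and 0.22 for Col5a2. Each of these was higher after EtOH in hippocampus and lower after EtOH in forebrain, although the hippocampus differences of Col1a1 and Col5a2 (0.12 each) lie within the hippocampus SD of 0.187. The same pattern, untested, was seen for 10 genes of the marker lists: Rarb at 0.92, Dcn at 0.84, Sst at 0.80, Slc22a6 at 0.73, Slc6a13 at 0.71, Foxd1 at 0.68, Isl1 at 0.57, Bcl11b at 0.50, Gad2 at 0.41 and Aldh1a2 at 0.37. The choroid plexus markers Otx2, at -0.58, and Ttr, at -0.30, ran the other way. The hippocampus difference of Aldh1a2 (0.18) also lies within the hippocampus SD. The share of all kept genes with such opposite signs was not counted, so nothing is read from these numbers of genes.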

How the results depend on the processing

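Within a tissue, the Adamts3 values moved most with the choice of probe set, and over both tissues the -0.40 moved to -0.35 with it and to -0.34 with the centring below. With the mean of its 16 probe sets, EtOH minus PBS was -0.62 in hippocampus and -0.08 (-0.0807) in forebrain, and hippocampus minus forebrain was -0.27 after EtOH and 0.27 after PBS. Centring each array on its median over kept genes, chosen after seeing the data, moves the median hippocampus difference of all kept genes to 0.02; Adamts3 was then at -0.74, the median of its probe sets at -0.51, Dab1 at -0.45, Lrp8 at -0.11, Vldlr at -0.02 and Reln at 0.10. Under it the tissue difference of Lrp8 changed sign to 0.042 (adjusted p = 0.722), and kept genes at least 1.5-fold apart in hippocampus were 19 lower and 116 higher, against 31 and 88 after quantile normalization and 47 and 54 as reported. At 2-fold, 0 members were lower in hippocampus. The stricter filter left 30 and 23 such genes and no filter 77 and 131. For ethanol over both tissues, limma called 14 genes after quantile normalization, 7 with the 75th percentile filter and 2 with kept-gene centring, no member among them; the adjusted p ranged over the 7 alternatives and the reported fit from 0.318 to 0.621 for Adamts3 and from 0.219 to 0.618 for Dab1. For tissue, it called 416 genes after quantile normalization, 190 with median centring, 66 with kept-gene centring, 37 without a filter and 27 without a trend, against 124 as reported. No paired analysis was possible because each group has 1 array and the labels give no replicate number, and leaving out an array leaves no residual degree of freedom.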
